A study of Mus musculus with 12 samples.

Results

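The cathepsins and legumain are proteases that break down proteins in endosomes and lysosomes. The 10 genes described here are Ctsa, Ctsb, Ctsc, Ctsd, Ctsh, Ctsk, Ctsl, Ctss, Ctsz and Lgmn. They were taken by symbol from a table of read counts for 24391 genes, and all 10 had enough counts to be tested. The table holds RNA sequencing of dendritic cells (DCs) of the CD11b type, which present antigens to T cells, in 12 libraries from C57BL/6J mice. All mice were wild type, were used between 8 and 12 weeks of age and had received a replication-deficient adenovirus through the trachea. AdCL is the vector with no inserted gene and served as the control. AdTGFb1 carries the porcine gene for TGF-β1 in its active form, a cytokine that drives fibrosis in the lung. AdCL was given to the mice of DC 7, 8 and 9 in experiment 1 and of DC 943, 944 and 949 in experiment 3. AdTGFb1 was given to those of DC 14, 52 and 54 in experiment 1 and of DC 954, 955 and 956 in experiment 3. DC numbers are the library names in the sample titles. No label used here says from which organ and by which gate the cells came, how long after the vector they were taken, or whether libraries are separate animals. Each p-value thus rests on the spread between libraries, which may be technical. The porcine transgene is not counted apart from the mouse gene here.

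Most cathepsins are made as inactive precursors, reach the lysosome through the mannose 6-phosphate route and become active as the compartment turns acid. In dendritic cells they cut antigens into peptides and remove the invariant chain from MHC class II molecules, a step in which cathepsin S is central. In macrophages the same enzymes serve bulk degradation of engulfed material, and cystatins and some serpins hold them in check.

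The libraries held 10099912 to 15594546 counts, and levels are given in CPM, the count scaled to library size by the TMM method of edgeR. Itgam, which encodes CD11b, lay between 275.7 and 561.5 CPM in all 12 libraries, and Itgax, which encodes CD11c, between 787.7 and 1241 CPM. From Xist and Ddx3y, 4 libraries were male (AdCL DC 7, 8 and 9 and AdTGFb1 DC 14) and 8 were female. Levels of markers of other cells differed between the groups. Of 13 monocyte and macrophage markers, 11 were higher with AdTGFb1 over both experiments, and of 12 dendritic cell markers 9 were lower. Each of those 13 and 12 markers was tested, and the median log2 fold changes were 1.04 and -1.27. The 13 monocyte and macrophage markers summed to 3988 to 4700 CPM in AdCL and 8868 to 11703 CPM in AdTGFb1 of experiment 1. They summed to 7477 to 9205 CPM in AdCL and 15345 to 19457 CPM in AdTGFb1 of experiment 3. Markers of other blood cells were low, with sums over a library of 34.2 to 97.4 CPM for neutrophils, 5.23 to 100.8 CPM for lymphocytes and 17.3 to 83.9 CPM for platelets. Of the tested ones, 1 of 5 neutrophil markers was higher and 1 lower over both experiments, and 1 of 8 lymphocyte and 1 of 5 platelet markers were lower. Beside the counts of all these lists, 6.78% of all genes tested were higher and 10.4% lower. In such bulk RNA, fewer cells of a type and less RNA per cell cannot be told apart. The part of these markers in the results on the proteases was not tested as a cause.

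The main question was whether the proteases differed between AdTGFb1 and AdCL. Of the 10 genes, 7 were higher with AdTGFb1 over both experiments (Ctss, Ctsl, Ctsb, Lgmn, Ctsc, Ctsa and Ctsd), 0 were lower, and Ctsh, Ctsz and Ctsk did not pass. Over all 13221 genes tested, 6.78% were called higher and 10.4% lower, where a call is an adjusted p under 0.05 by edgeR's quasi-likelihood test. The median log2 fold change of the 10 was 0.80, against -0.002 for all genes tested. For 5 of the 10 (Ctss, Ctsl, Ctsb, Ctsc and Ctsa), every AdTGFb1 library lay above every AdCL library, as was the case for 1.86% of all genes. The 7 calls held under each of the 19 other settings run for this comparison, with adjusted p-values of at most 0.0474 (the highest, of Lgmn).

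**Figure D1:**
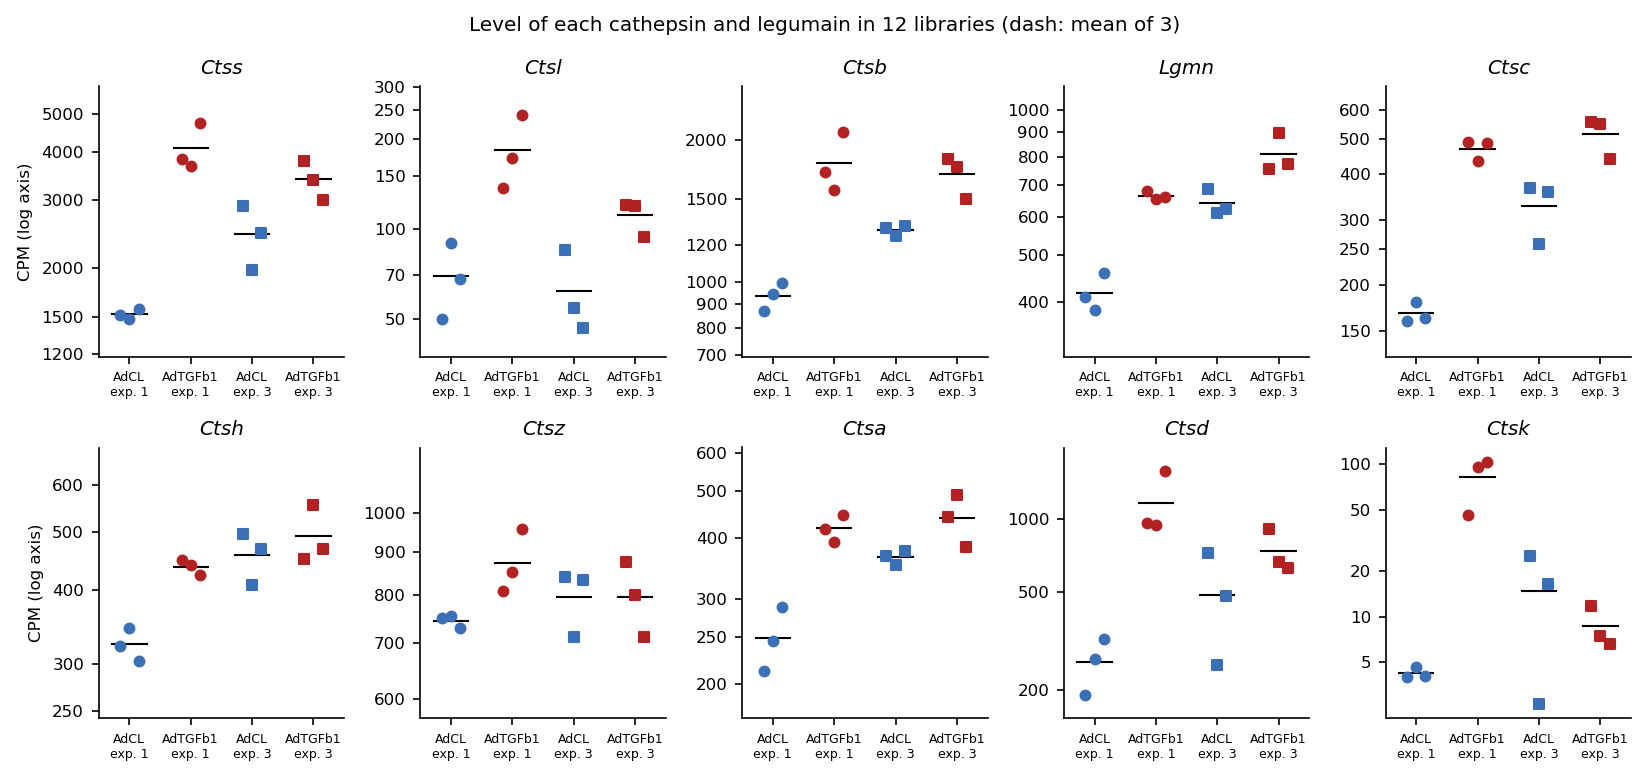
Level in CPM (log axis, with its own range for each gene) of the 10 genes in AdCL (blue) and AdTGFb1 (red) of experiment 1 (circles) and experiment 3 (squares); each symbol is 1 library and a dash is the mean of 3. Ctss, Ctsl, Ctsb, Ctsc and Ctsa show every red symbol above every blue symbol, and Ctsk is high in AdTGFb1 of experiment 1 (46.4 to 103.3 CPM).

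The 4 called genes with the largest change, Ctsd, Ctsl, Ctsc and Ctss, are shown with their promoter sequence, because their promoters differ in the motifs they hold. The sequences are from RefSeq on GRCm38.p6, from 250 bases before the start site to 10 after it, 5′ to 3′ on the strand of the gene. Capitals mark matches on either strand to CACGTG, GTCACGTG, GAGGAAGT or TGANTCA. The first, CACGTG, is the E-box bound by basic helix-loop-helix factors, and GTCACGTG, which contains it, is the form found in many promoters of lysosomal genes and bound by TFEB and its relatives. GAGGAAGT is a form of the site of PU.1, the Ets factor of myeloid cells encoded by Spi1, and TGANTCA is the site of AP-1.
Ctsd (chr7:142387818-142388077, minus strand): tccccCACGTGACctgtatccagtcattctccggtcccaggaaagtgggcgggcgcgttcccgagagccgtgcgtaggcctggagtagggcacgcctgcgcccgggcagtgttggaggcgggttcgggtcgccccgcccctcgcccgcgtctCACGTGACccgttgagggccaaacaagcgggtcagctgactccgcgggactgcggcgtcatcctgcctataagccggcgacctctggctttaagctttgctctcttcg
Ctsl (chr13:64370511-64370770, minus strand): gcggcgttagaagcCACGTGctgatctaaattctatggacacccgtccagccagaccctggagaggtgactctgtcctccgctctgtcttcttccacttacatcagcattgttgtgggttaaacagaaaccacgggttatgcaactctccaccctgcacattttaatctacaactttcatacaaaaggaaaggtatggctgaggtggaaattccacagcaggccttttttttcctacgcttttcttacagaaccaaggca
Ctsc (chr7:88277835-88278094, plus strand): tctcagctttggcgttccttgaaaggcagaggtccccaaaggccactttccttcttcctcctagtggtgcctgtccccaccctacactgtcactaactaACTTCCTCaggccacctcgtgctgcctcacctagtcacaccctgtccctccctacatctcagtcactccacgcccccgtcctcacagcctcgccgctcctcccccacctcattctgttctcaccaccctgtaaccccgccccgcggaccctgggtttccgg
Ctss (chr3:95526536-95526795, plus strand): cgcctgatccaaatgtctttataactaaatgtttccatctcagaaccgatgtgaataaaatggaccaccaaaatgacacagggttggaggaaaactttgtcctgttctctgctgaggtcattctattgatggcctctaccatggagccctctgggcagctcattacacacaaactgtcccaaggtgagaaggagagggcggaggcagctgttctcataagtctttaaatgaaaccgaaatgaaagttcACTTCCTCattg

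Ctsd held 2 matches to GTCACGTG, at 245 and 98 bases before its start site. Ctsl held 1 match to CACGTG, which began 236 bases before the start site and is not the longer form. Ctsc and Ctss each held 1 match to GAGGAAGT on the opposite strand, 151 bases before the start site in Ctsc and 2 bases before it in Ctss, and neither held CACGTG. Windows of 300 bases were available for 8 of the 10 genes, with 2 start sites each for Ctsa and Lgmn. In these, GTCACGTG also occurred at 1 start site of Ctsa (2 matches) and 1 of Lgmn (1 match), while the windows of Ctsk and Ctsz held none of the 4 motifs. Among all 32851 promoter windows of the same length, 7.15% held CACGTG, 2.25% GTCACGTG, 3.2% GAGGAAGT and 7.81% TGANTCA. A match is a run of letters and not a measured binding site.

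Among the endopeptidases, Ctss encodes cathepsin S, the cysteine protease that makes the last cuts in the invariant chain. In experiment 1 it lay at 1514, 1475 and 1573 CPM in AdCL DC 7, 8 and 9 and at 3836, 3671 and 4733 CPM in AdTGFb1 DC 14, 52 and 54. In experiment 3 it lay at 2903, 1980 and 2471 CPM in AdCL DC 943, 944 and 949 and at 3791, 3391 and 2998 CPM in AdTGFb1 DC 954, 955 and 956. The vectors did not overlap in either experiment, and the narrowest gap was between AdCL DC 943 and AdTGFb1 DC 956. Over both experiments Ctss rose by a log2 fold change of 0.95 ± 0.16 (SE, edgeR adjusted p = 0.000392, 6 of 6 AdTGFb1 libraries above all AdCL). The change was 1.42 ± 0.14 in experiment 1 (adjusted p = 2.80e-07) and 0.47 ± 0.14 in experiment 3 (adjusted p = 0.0476). The call in experiment 3 was lost without any of AdCL DC 7, 8, 9, 944 and 949 or AdTGFb1 DC 954 and 955, with adjusted p-values of 0.0544 (without DC 8) to 0.216 (without DC 954). It was also lost with the alveolar macrophage markers described further on in the model (0.57, adjusted p = 0.464). A fit of the 6 libraries of experiment 3 alone lost it too (0.48, adjusted p = 0.0967). With sex in the model the value stayed at 0.47 (adjusted p = 0.0506). All 6 libraries of experiment 3 were female, so a sex term cannot adjust this comparison.

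Ctsl encodes cathepsin L, a cysteine endopeptidase that processes the invariant chain in the thymic cortex and degrades proteins in lysosomes of many cells. It lay at 49.9, 89.9 and 67.8 CPM in AdCL DC 7, 8 and 9 and at 137.4, 172.8 and 241.1 CPM in AdTGFb1 DC 14, 52 and 54. In experiment 3 the AdCL libraries DC 943, 944 and 949 held 85.0, 54.4 and 46.5 CPM, and the AdTGFb1 libraries DC 954, 955 and 956 held 120.2, 119.1 and 94.0 CPM. No AdTGFb1 library was as low as the highest AdCL library, DC 8. Ctsl rose by 1.13 ± 0.19 on the log2 scale over both experiments (edgeR adjusted p = 0.000441). The change was 1.41 ± 0.24 in experiment 1 (adjusted p = 0.000150) and 0.84 ± 0.24 in experiment 3 (adjusted p = 0.0329). In experiment 3 the adjusted p rose to 0.0732 to 0.152 without AdCL DC 944 or 949 or AdTGFb1 DC 954 or 955. It was 0.0788 with the lung structural markers in the model (0.80) and 0.221 with the alveolar macrophage markers (1.35).

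Ctsb encodes cathepsin B, a cysteine protease that cuts inside proteins and also trims dipeptides from their carboxyl end. It lay at 867.1, 943.8 and 997.3 CPM in AdCL and at 1712, 1565 and 2087 CPM in AdTGFb1 of experiment 1. In experiment 3 it lay at 1304, 1254 and 1317 CPM in AdCL and at 1829, 1758 and 1503 CPM in AdTGFb1. The groups did not overlap within or across the experiments. The log2 fold change was 0.66 ± 0.12 over both (edgeR adjusted p = 0.000671), 0.93 ± 0.13 in experiment 1 (adjusted p = 1.48e-05) and 0.39 ± 0.13 in experiment 3 (adjusted p = 0.0740). Exons of Ctsb overlap Fdft1 on the opposite strand, and no source used here says whether the counting used strand, so its counts are uncertain in that part.

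Lgmn encodes legumain, the endopeptidase that cuts after asparagine and also trims several cathepsins to their mature form. It lay between 384.8 and 459.5 CPM in AdCL and between 652.7 and 679.1 CPM in AdTGFb1 of experiment 1, and between 612.9 and 686.5 CPM in AdCL and 755.5 and 896.9 CPM in AdTGFb1 of experiment 3. The vectors were apart within each experiment, while AdCL of experiment 3 overlapped AdTGFb1 of experiment 1. Lgmn rose by 0.50 ± 0.10 over both experiments (edgeR adjusted p = 0.00212) and by 0.67 ± 0.13 in experiment 1 (adjusted p = 0.000412), and the value of 0.33 ± 0.12 in experiment 3 did not pass (adjusted p = 0.127).

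Ctsd encodes cathepsin D, the main aspartic endopeptidase of lysosomes. In experiment 1 it lay at 191.5, 267.0 and 324.0 CPM in AdCL DC 7, 8 and 9 and at 959.5, 944.8 and 1560 CPM in AdTGFb1 DC 14, 52 and 54. In experiment 3 it lay at 726.8, 253.5 and 484.7 CPM in AdCL DC 943, 944 and 949 and at 909.1, 667.0 and 629.2 CPM in AdTGFb1 DC 954, 955 and 956. The groups were apart in experiment 1 and overlapped in experiment 3, where AdCL DC 943 stood above AdTGFb1 DC 955 and 956. Ctsd rose by 1.37 ± 0.29 over both experiments (edgeR adjusted p = 0.00256) and by 2.15 ± 0.28 in experiment 1 (adjusted p = 5.78e-06), which is 4.43-fold. In experiment 3 the value was 0.59 ± 0.27 (adjusted p = 0.231), and without AdCL DC 943 it was 0.99 (adjusted p = 0.0166). With no filter on low counts it passed at 0.59 (adjusted p = 0.00236).

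Ctsk encodes cathepsin K, the collagen-degrading cysteine protease of osteoclasts that also occurs in some macrophages. It lay at 4.0, 4.7 and 4.1 CPM in AdCL DC 7, 8 and 9 and at 46.4, 96.7 and 103.3 CPM in AdTGFb1 DC 14, 52 and 54. In experiment 3 it lay at 25.2, 2.7 and 16.4 CPM in AdCL DC 943, 944 and 949 and at 11.8, 7.4 and 6.6 CPM in AdTGFb1 DC 954, 955 and 956. The groups were far apart in experiment 1, and in experiment 3 the AdTGFb1 libraries lay inside the range of the AdCL libraries. Ctsk rose by 4.26 ± 0.53 on the log2 scale in experiment 1 (edgeR adjusted p = 3.90e-06), a 19.2-fold change, and the value in experiment 3 was -0.77 ± 0.47 (adjusted p = 0.418). Over both experiments the value of 1.70 ± 0.86 did not pass (adjusted p = 0.202), and without AdCL DC 943 it was 2.16 (adjusted p = 0.0408). It also passed with no filter on low counts (adjusted p = 0.0140) and in a fit that left out the experiment (2.25, adjusted p = 0.0394). Without AdCL DC 944 the value in experiment 3 passed as lower, at -1.25 (adjusted p = 0.0384).

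The summed level of alveolar macrophage markers, though not of each marker, was high in the libraries with the most Ctsk. The 11 markers (Siglecf, Chil3, Marco, Car4, Fabp1, Krt79, Ear1, Ear2, Plet1, Atp6v0d2 and Pparg) summed to 113.9 to 222.7 CPM in AdCL and 1211 to 2463 CPM in AdTGFb1 of experiment 1. In experiment 3 they summed to 282.0 to 725.3 CPM in AdCL and 126.7 to 165.4 CPM in AdTGFb1. In experiment 1, 4 of the 11 were higher with AdTGFb1 and 0 lower, where 10.6% of all genes were higher and 14.1% lower. The markers did not move together there, with log2 fold changes from -5.40 to 4.75. In experiment 3, 2 were lower and 0 higher, where 4.46% of all genes were lower and 1.97% higher. Chil3 made up most of the sum in AdTGFb1 of experiment 1, at 977.5 to 2040 CPM, while Siglecf stayed between 5.9 and 16.4 CPM in all 12 libraries. Between 0 and 2 of the 11 markers had no count, depending on the library. AdCL DC 943, the highest AdCL library for Ctsk and Ctsd, also had the highest marker sum among the AdCL libraries, 725.3 CPM. AdTGFb1 of experiment 3 had lower marker sums than every AdCL library of that experiment (282.0 to 725.3 CPM). Ctsd in these AdTGFb1 libraries, at 629.2 to 909.1 CPM, lay above AdCL DC 944 (253.5 CPM) and DC 949 (484.7 CPM). AdCL DC 943 (726.8 CPM) lay inside that range. An alternative chosen after seeing the data added a term for the mean log2 CPM of these markers, in which each weighs the same, unlike in the sum. On that scale, centred on 0, AdTGFb1 DC 14 lay at 0.11, below AdCL of experiment 3 (0.38 to 0.72), although its sum was higher. With the term, higher calls over both experiments went from 897 to 1318 among all genes and from 7 to 9 among the proteases. Over both experiments, Ctsd then passed at 1.48 (edgeR adjusted p = 3.03e-06) and Ctsk at 1.98 (adjusted p = 0.000341). In experiment 1, both passed, Ctsd at 1.62 (adjusted p = 0.0233) and Ctsk at 3.31 (adjusted p = 0.0188). In experiment 3 the value of Ctsk went from -0.77 to 0.37 (adjusted p = 0.953). The difference between the effects in the 2 experiments went from -1.56 to -0.32 in Ctsd (adjusted p = 0.989) and from -5.04 to -2.94 in Ctsk (adjusted p = 0.909). Whether the markers account for either gene was not tested.

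**Figure D2:**
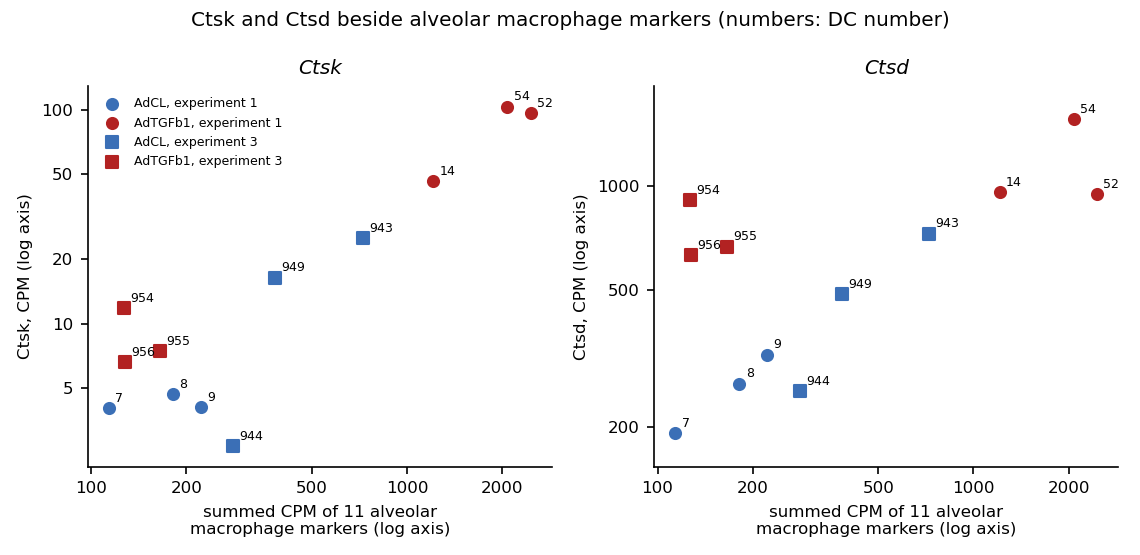
Ctsk (left) and Ctsd (right) in CPM against the summed CPM of 11 alveolar macrophage markers, both on log axes, with 1 symbol per library and its DC number beside it; AdCL is blue, AdTGFb1 red, experiment 1 circles and experiment 3 squares. The AdTGFb1 libraries of experiment 1 stand at the upper right (1211 to 2463 CPM of markers). AdTGFb1 DC 954, 955 and 956 lie low on the marker axis (126.7 to 165.4 CPM) with 629.2 to 909.1 CPM of Ctsd. AdCL DC 944, 949 and 943 lie at 282.0, 383.0 and 725.3 CPM of markers with 253.5, 484.7 and 726.8 CPM of Ctsd.

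Among the exopeptidases, which trim the ends of proteins, Ctsc encodes cathepsin C, the dipeptidyl peptidase that activates granule serine proteases. In experiment 1 it lay at 159.2, 180.1 and 162.3 CPM in AdCL DC 7, 8 and 9 and at 491.2, 434.5 and 485.7 CPM in AdTGFb1 DC 14, 52 and 54. In experiment 3 it lay at 368.2, 257.9 and 359.0 CPM in AdCL DC 943, 944 and 949 and at 557.1, 548.3 and 440.1 CPM in AdTGFb1 DC 954, 955 and 956. The groups did not overlap within or across the experiments. Ctsc rose by 1.07 ± 0.15 over both (edgeR adjusted p = 7.82e-05), by 1.49 ± 0.15 in experiment 1 (adjusted p = 2.98e-07) and by 0.65 ± 0.15 in experiment 3 (adjusted p = 0.00823). In experiment 3 this was the smallest adjusted p of the 10 genes, and the call was lost with the alveolar macrophage markers in the model (0.58, adjusted p = 0.476).

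Ctsa encodes cathepsin A, a serine carboxypeptidase that also protects β-galactosidase and neuraminidase in the lysosome. It lay between 212.9 and 289.4 CPM in AdCL and 393.7 and 447.1 CPM in AdTGFb1 of experiment 1, and between 352.8 and 375.8 CPM in AdCL and 383.6 and 492.5 CPM in AdTGFb1 of experiment 3. Every AdTGFb1 library exceeded every AdCL library. Ctsa rose by 0.51 ± 0.12 over both experiments (edgeR adjusted p = 0.00576). The value in experiment 3, 0.27 ± 0.14, did not pass (adjusted p = 0.322). Exons of Ctsa overlap Neurl2 and Pltp on the opposite strand, so its counts carry the same uncertainty as those of Ctsb.

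Ctsh encodes cathepsin H, an aminopeptidase, and Ctsz encodes cathepsin X, a carboxypeptidase. Ctsh lay between 304.1 and 345.5 CPM in AdCL of experiment 1 and between 406.7 and 554.7 CPM in the other 9 libraries. Its log2 fold change was 0.43 ± 0.13 in experiment 1 (edgeR adjusted p = 0.0179) and 0.11 ± 0.13 in experiment 3 (adjusted p = 0.750), and over both experiments 0.27 ± 0.10 did not pass (adjusted p = 0.0864). Ctsh passed over both with DESeq2 (adjusted p = 0.0439), with the alveolar macrophage markers in the model (edgeR adjusted p = 0.0298) and without AdCL DC 943 (edgeR adjusted p = 0.0437). Its call in experiment 1 was lost with sex in the model (0.47, adjusted p = 0.112) and with either marker list (0.44, adjusted p = 0.278, alveolar macrophage; 0.50, adjusted p = 0.386, lung structural). Ctsz varied least of the 10, 1.35-fold from its lowest (711.8 CPM) to its highest library (958.2 CPM). Its log2 fold change was 0.11 ± 0.10 over both experiments (adjusted p = 0.490), and it was called in neither experiment. Exons of Ctsz overlap Nelfcd on the opposite strand.

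**Figure D3:**
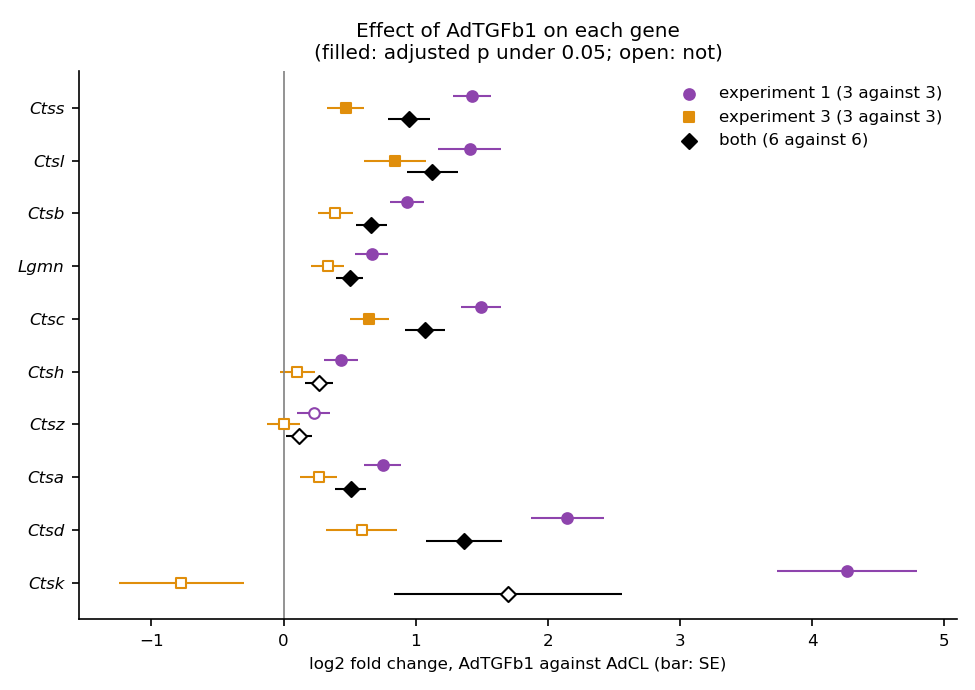
Log2 fold change of AdTGFb1 against AdCL (x axis) for each of the 10 genes (y axis) in experiment 1 (circles), experiment 3 (squares) and both (diamonds), with the SE from edgeR as the bar; filled symbols passed an adjusted p of 0.05 and open symbols did not. In experiment 1, 9 of 10 symbols are filled, and in experiment 3, 3 of 10 are (Ctss, Ctsl and Ctsc).

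The next question was whether the change differed between the experiments. In experiment 1, 9 of the 10 genes were called higher (all but Ctsz), against 10.6% of all genes, and the median log2 fold change was 1.17. In experiment 3, 3 of 10 were (Ctss, Ctsl and Ctsc), against 1.97% of all genes, with a median of 0.36. Every AdTGFb1 library lay above every AdCL library for 10 of 10 genes in experiment 1 (18.8% of all genes) and for 6 of 10 in experiment 3 (Ctsa, Ctsb, Ctsc, Ctsl, Ctss and Lgmn, against 11.5% of all genes). The difference between the effects, experiment 3 minus experiment 1, was below 0 for all 10 genes, from -5.04 to -0.23, with a median of -0.55, and passed as lower for 4, against 2.59% of all genes. These were Ctsk (-5.04 ± 0.70, edgeR adjusted p = 0.000184), Ctss (-0.95 ± 0.20, adjusted p = 0.00543), Ctsd (-1.56 ± 0.38, adjusted p = 0.0146) and Ctsc (-0.84 ± 0.21, adjusted p = 0.0173). When sex was added to the model, only Ctsk passed (-4.21, adjusted p = 0.00899). The values of the others were then -0.91 for Ctsc (adjusted p = 0.0887), -0.87 for Ctss (adjusted p = 0.0855) and -1.29 for Ctsd (adjusted p = 0.185). Ctsc also lost the call without AdTGFb1 DC 956 (adjusted p = 0.0543) and Ctsd with DESeq2 (adjusted p = 0.0505). Experiment and the males cannot be told apart in AdCL, since all 3 AdCL libraries of experiment 1 were male and all 6 libraries of experiment 3 were female. In a fit on the 4 groups, the sex term thus rests on 1 library, AdTGFb1 DC 14, against DC 52 and 54 of its group. This holds for the sex-adjusted values here, in experiment 1 and within AdCL, and the part of sex was not tested further.

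The AdCL libraries of experiment 1 were the low point for most of the genes. Their mean was the lowest of the 4 groups for 9 of 10 genes, the exception being Ctsl. For 6 of 10 (Ctsa, Ctsb, Ctsc, Ctsh, Ctss and Lgmn) all 3 of these libraries lay below all other 9 libraries, as was the case for 5.75% of all genes. Within AdCL, 8 of 10 genes were higher in experiment 3 than in experiment 1 (all but Ctsl and Ctsz), against 4.13% of all genes. The largest of these differences were in Ctsk (1.79 ± 0.50, edgeR adjusted p = 0.0257), Ctsc (0.97 ± 0.15, adjusted p = 0.000291) and Ctsd (0.90 ± 0.27, adjusted p = 0.0353). That of Ctss was 0.69 ± 0.14 (adjusted p = 0.00338). Without AdCL DC 943 the difference was 1.18 in Ctsk (adjusted p = 0.165) and 0.51 in Ctsd (adjusted p = 0.251), and both missed the threshold without AdCL DC 7 or 949 too. Over both vectors, Lgmn (0.45 ± 0.10, adjusted p = 0.0116) and Ctsc (0.55 ± 0.15, adjusted p = 0.0334) were higher in experiment 3, against 3.57% of all genes. With sex in the model neither passed, at 0.36 for Lgmn (adjusted p = 0.222) and 0.33 for Ctsc (adjusted p = 0.493). Ctsc also missed the threshold without any of AdCL DC 7, 8, 9, 943 and 949 (0.0563 to 0.0870).

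Lung structural markers also differed between these libraries. The 18 of them summed to 339.5 to 1164 CPM in AdCL of experiment 1 and to 145.6 to 385.0 CPM in the other 9 libraries, with 0 to 4 of the 18 at 0 in a library. In experiment 1, 11 of 18 were lower with AdTGFb1 and 1 higher, where 14.1% of all genes were lower. With a term for the mean log2 CPM of these markers, 1 of 10 proteases was called higher in experiment 1 (Ctsc), 7 of 10 over both experiments and 0 of 10 within AdCL. Over all 13221 genes, calls went in the same order from 1397 to 99, from 897 to 614 and from 546 to 43. In experiment 1 the log2 fold changes were then larger for Ctsl (1.56, from 1.41 without the term), Ctsa (0.91, from 0.75) and Ctsh (0.50, from 0.43). That of Lgmn was 0.67 in both fits. Those of Ctss (0.95, from 1.42), Ctsd (1.20, from 2.15) and Ctsk (2.73, from 4.26) were smaller. So were those of Ctsb (0.83, from 0.93), Ctsc (1.30, from 1.49) and Ctsz (0.007, from 0.23). When sex was added, 0 of 10 passed within AdCL, with Ctsc at 1.07 (adjusted p = 0.0897), Lgmn at 0.66 (adjusted p = 0.214) and Ctsh at 0.55 (adjusted p = 0.349), while Ctsk was at 0.68 (adjusted p = 0.800) and Ctsd at 0.52 (adjusted p = 0.722). The sex term of that fit rests on AdTGFb1 DC 14 against DC 52 and 54, and 32 of all genes were then called within AdCL, against 546 without it. The part of the markers in the results was not tested beyond the fits above.

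Set per length of the transcript matched to RefSeq, Ctss was the most abundant of the 10 in each of the 4 groups and Ctsk the least. Over the 12 libraries the levels were 2112 ± 790 CPM per kb for Ctss (SD), 556.4 ± 51.6 for Ctsz, 318.1 ± 76.1 for Lgmn, 310.2 ± 186.5 for Ctsd, 301.1 ± 80.4 for Ctsb and 264.3 ± 45.2 for Ctsh. They were 115.0 ± 45.9 CPM per kb for Ctsc, 101.1 ± 22.8 for Ctsa, 54.0 ± 28.9 for Ctsl and 18.1 ± 23.9 for Ctsk. Ctss stood above Ctsz, and Ctsz above Lgmn, in all 12 libraries with no overlap of their ranges. Lgmn, Ctsd, Ctsb and Ctsh overlapped as neighbours in this order, as did Ctsc, Ctsa, Ctsl and Ctsk, while Ctsh lay above Ctsc in all 12 libraries. Within each library, Ctsa still exceeded Ctsl, and Ctsl exceeded Ctsk. Other lengths changed this order. With all annotated exons, Ctsh lay at 95.0 CPM per kb, Ctsc at 63.8, below Ctsa at 78.2, and Ctsl at 16.4, below Ctsk at 18.1. With the longest transcript, Ctsh lay at 155.8 CPM per kb and Ctsl at 17.3, again below Ctsk. In AdTGFb1 of experiment 1, Ctsd (542.9 ± 165.1 CPM per kb) was the third of the 10 after Ctss and Ctsz, whereas in AdCL of experiment 1 it was the sixth (122.6 ± 31.3 CPM per kb).

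The 10 genes together summed to 4480 to 4912 CPM in AdCL and 9223 to 11701 CPM in AdTGFb1 of experiment 1, and to 5887 to 7803 CPM in AdCL and 8009 to 9743 CPM in AdTGFb1 of experiment 3. The mean sum was 1.65-fold higher with AdTGFb1 over both experiments, 2.16-fold in experiment 1 and 1.30-fold in experiment 3. No AdTGFb1 library had a lower sum than any AdCL library. The share of Ctss in the sum per kb was 44.4% in AdCL and 54.2% in AdTGFb1 of experiment 1, and 48.6% and 52.0% in experiment 3.

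**Figure D4:**
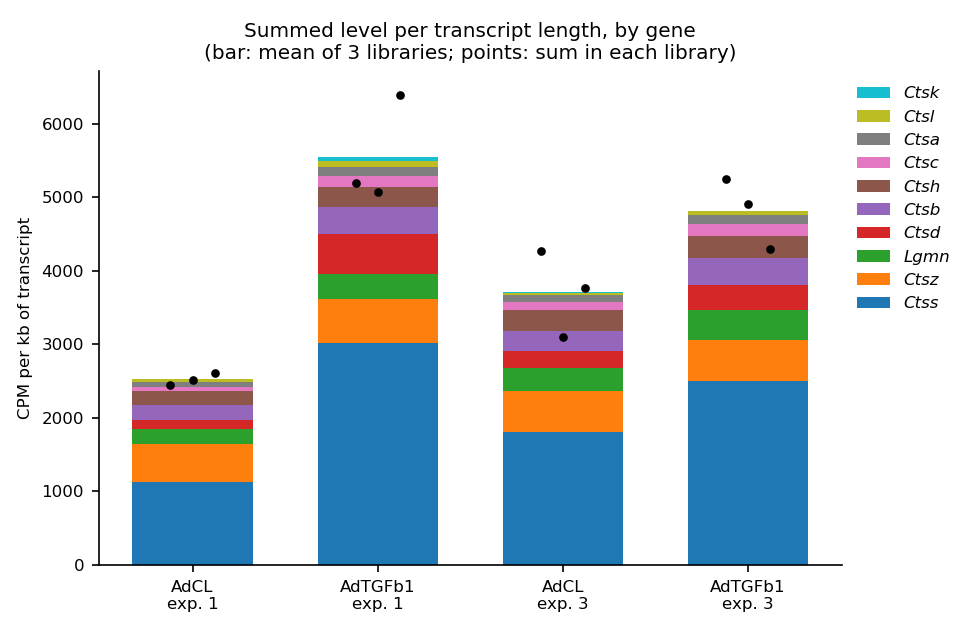
CPM per kb of transcript of the 10 genes, stacked, in the 4 groups (x axis); each bar is the sum of the means of 3 libraries and the points are the sums in single libraries. Ctss, at the base, makes up 44.4% to 54.2% of each bar, and the bars of AdTGFb1 stand above the AdCL bar of the same experiment.

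Most other cathepsins of the mouse had no counts. Of 14 listed, 4 were tested (Ctso, Ctse, Ctsf and Ctsw) and the other 10 had no count in any library, where 3 counts, the most that a count of 0 allows, are 0.181 to 0.310 CPM. None of the 4 was called by edgeR over both experiments, and 2 had an unadjusted p under 0.05 (Ctso, 0.0174, and Ctse, 0.0431). Ctso, a cysteine protease, lay at 13.8 ± 5.34 CPM in AdCL and 22.9 ± 5.92 CPM in AdTGFb1 (SD, n = 6 each). Its value on the log2 scale was 0.76 ± 0.29 (edgeR adjusted p = 0.0818, and 0.0606 with DESeq2), and it passed without AdTGFb1 DC 955 (0.92, adjusted p = 0.0311).

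The list of inhibitors held cystatins, stefins and serpins, some of which act on other proteases. Of 18 listed, 9 were tested, and over both experiments 4 were lower with AdTGFb1 and 0 higher, against 10.4% and 6.78% of all genes, with a median log2 fold change of -0.66. In experiment 1, 3 were lower and 1 higher, which was Cst7 (3.15 ± 1.03, edgeR adjusted p = 0.0290), the gene of cystatin F, named after its values were seen. Cst3 encodes cystatin C, the secreted inhibitor of cysteine cathepsins. In experiment 1 it lay at 2233, 2260 and 1845 CPM in AdCL DC 7, 8 and 9 and at 1397, 1103 and 924.9 CPM in AdTGFb1 DC 14, 52 and 54. In experiment 3 it lay at 1687, 2952 and 2076 CPM in AdCL DC 943, 944 and 949 and at 1150, 1599 and 1220 CPM in AdTGFb1 DC 954, 955 and 956. Every AdTGFb1 library lay below every AdCL library, and Cst3 fell by 0.82 ± 0.14 on the log2 scale over both experiments (edgeR adjusted p = 0.000484).

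The ratio of Ctss to Cst3 in CPM was 0.961 ± 0.425 in AdCL and 3.18 ± 1.06 in AdTGFb1 (SD, n = 6 each). The 6 AdCL libraries spanned 0.653 to 1.72 and the 6 AdTGFb1 libraries 2.12 to 5.12. These ranges could not overlap, since the vectors were already apart in Ctss and, the other way, in Cst3, so the gap is no further result. Serpinb9, an inhibitor of granzyme B, fell by 1.12 ± 0.18 (edgeR adjusted p = 0.000265), from 243.5 ± 37.1 CPM to 112.0 ± 35.1 CPM. Serpinb1a (-1.43 ± 0.42, adjusted p = 0.0232), which inhibits neutrophil proteases, and Serpinb6b (-0.66 ± 0.21, adjusted p = 0.0371) also passed. Serpinb1a missed the threshold in the fits with sex (adjusted p = 0.0714) and with the lung structural markers (adjusted p = 0.0776) and without AdTGFb1 DC 14 or 54 or AdCL DC 944 (0.0535 to 0.116). Serpinb6b did so in the fit with sex (adjusted p = 0.173), with the experiment left out (adjusted p = 0.0830) and without AdCL DC 7, 9, 943, 944 or 949 or AdTGFb1 DC 52, 54 or 956 (0.0512 to 0.0877).

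**Figure D5:**
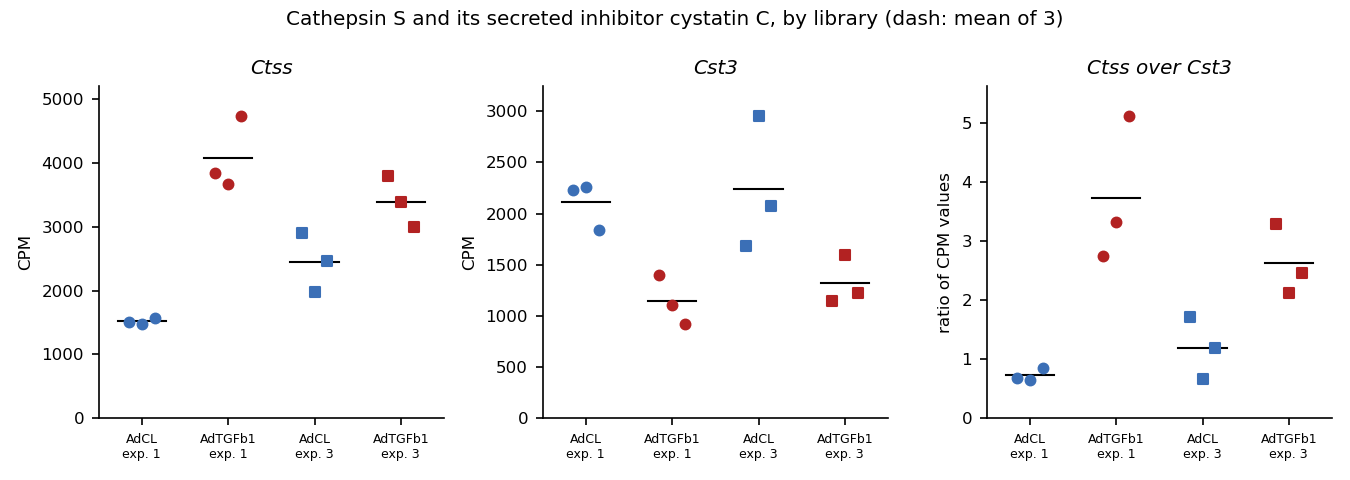
Ctss (left) and Cst3 (middle) in CPM and their ratio (right) in AdCL (blue) and AdTGFb1 (red) of experiment 1 (circles) and experiment 3 (squares); each symbol is 1 library, a dash is the mean of 3 and the y axes start at 0. Every AdTGFb1 library lies above every AdCL library for Ctss and below for Cst3, so the ratios must lie apart too (2.12 to 5.12 against 0.653 to 1.72).

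Of 17 genes that carry hydrolases to the lysosome or work beside them there, all were tested, 7 were higher with AdTGFb1 over both experiments and 0 lower, with a median log2 fold change of 0.33. Of all genes, 6.78% were higher. In experiment 1, 10 of 17 were higher (10.6% of all genes), and in experiment 3, 1 of 17 was, Grn (1.97% of all genes). Grn encodes progranulin, a lysosomal glycoprotein, and rose from 311.3 ± 107.7 CPM to 638.2 ± 62.6 CPM, by 1.09 ± 0.16 (edgeR adjusted p = 0.000128). Lamp1, which encodes a main protein of the lysosomal membrane, rose by 0.84 ± 0.16 (adjusted p = 0.00148). Psap, which encodes the precursor of the saposins that help break down sphingolipids, rose by 0.66 ± 0.13 (adjusted p = 0.00185). Nagpa, whose enzyme uncovers the mannose 6-phosphate tag, rose by 0.69 ± 0.17 (adjusted p = 0.00768), a call that the fit with sex lost (adjusted p = 0.0658). The receptors of that tag did not pass, with M6pr at -0.15 ± 0.11 (adjusted p = 0.387) and Igf2r at 0.26 ± 0.29 (adjusted p = 0.612), both named after their values were seen.

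The partners of the proteases in antigen processing were split. Of 18 tested, 6 were higher with AdTGFb1 over both experiments and 7 lower, with a median of -0.06, against 6.78% higher and 10.4% lower among all genes. H2-Oa, a subunit of the modulator of MHC class II peptide loading, fell by 1.51 ± 0.24 (edgeR adjusted p = 0.000233), and H2-Aa, an MHC class II chain, by 0.60 ± 0.11 (adjusted p = 0.00122). Ciita, the transactivator of MHC class II genes, rose by 0.61 ± 0.11 (adjusted p = 0.000875). Unc93b1, which carries nucleic acid-sensing Toll-like receptors to the endosomes where cathepsins cut them, rose by 0.60 ± 0.11 (adjusted p = 0.000823, and 0.0654 with the experiment left out of the model). Cd74, which encodes the invariant chain cut by cathepsin S and was named after its values were seen, fell from 19326 ± 2027 CPM to 14522 ± 3177 CPM, by 0.43 ± 0.12 (adjusted p = 0.0186).

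Among transcription factors of lysosomal and macrophage genes, Irf8 (1.16 ± 0.12, edgeR adjusted p = 4.03e-06) and Maf (1.35 ± 0.22, adjusted p = 0.000369) rose with AdTGFb1 over both experiments, and Bhlhe40 fell by 0.61 ± 0.11 (adjusted p = 0.000762, and 0.0512 with the experiment left out of the model). Also higher were Mitf (1.15 ± 0.23, adjusted p = 0.00167) and Tfec (2.37 ± 0.54, adjusted p = 0.00515), relatives of TFEB named after their values were seen. Tfeb (0.21 ± 0.15, adjusted p = 0.374), Tfe3 (0.11 ± 0.14, adjusted p = 0.645) and Spi1 (-0.17 ± 0.13, adjusted p = 0.391) did not pass. Mitf lay at 32.4 to 34.8 CPM in AdCL and 118.6 to 129.8 CPM in AdTGFb1 of experiment 1, and at 52.3 to 94.4 CPM in AdCL and 88.1 to 116.3 CPM in AdTGFb1 of experiment 3. Binding of any factor to the promoters shown above was not measured.

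Genes of at least 20 CPM with the profile most like that of a member were found by the root mean square difference of centred log2 CPM over the 12 libraries. For Ctss they were Lamp1 (0.092), Tgfbi (0.133) and Grn (0.134), where Ctss itself varied by 0.560 around its mean. For Ctsc they were Grn (0.136), Myo1f (0.188) and Cpne3 (0.199), with its own variation at 0.655. For Ctsd they were Bst1 (0.245), Dmxl2 (0.285) and Lyz2 (0.318), with its own variation at 0.894. Ctsk had no gene as near: F10 (0.658), Atp6v0d2 (0.672), which is among the alveolar macrophage markers, and Fn1 (0.787) came first, against a variation of 1.72. Ctsk and Ctss are neighbours on chromosome 3, with start sites 27.6 kb apart on GRCm38.p6. Their effects in experiment 1 were 4.26 and 1.42 on the log2 scale, and those in experiment 3 were -0.77 and 0.47.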

How the data were processed

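RNA of CD11b dendritic cells was sequenced in 12 libraries, 3 for each vector in each of 2 experiments. Per the labels' protocols, poly(A) RNA was selected and a directional kit with 10 PCR cycles was used. The values are the whole read counts per gene that the authors deposited, for 24391 genes. STAR 2.5.0c, HTSeq, DESeq2, FastQC 0.11.4, cutadapt 1.9.1, Trim Galore 0.4.1, bcl2fastq and mm9 stand in the submitters' processing notes, without their roles. Which annotation was used, and whether the counting used strand, is not given in the sources used here. A setting that ignores strand would mix reads of overlapping genes on opposite strands.

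Groups were taken from the sample titles. Counts were filtered with filterByExpr, scaled by TMM and fitted in edgeR 4.0.16 (R 4.3.3, limma 3.58.1) on 4 groups, with quasi-likelihood F tests and Benjamini-Hochberg adjustment over 13221 genes. For both experiments together the model held vector and experiment. The SE is the log2 fold change divided by the square root of F. The fit was tested on simulated data. Totals ran from 10099912 to 15594546 counts per library, so 3 counts, the limit that a count of 0 allows, are 0.181 to 0.310 CPM. That limit covers counting error only, since PCR reads without molecular identifiers are not independent molecules. Levels per kb used the transcript matched to RefSeq in GENCODE on GRCm38, chosen after seeing the lengths. Promoters came from RefSeq on GRCm38.p6, and no coordinates of mm9 were used.

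The 10 genes and the other lists were chosen with earlier results of these data known. Named genes are the 10, up to 4 genes of each list other than the marker lists with the smallest adjusted p over both experiments, Itgam and Itgax, and the 3 genes nearest in profile for 4 of the 10. Others are named as chosen after their values were seen. A transcription factor that the rule names is not reported here. Alternatives were RLE size factors, DESeq2 1.42.0, no filter, terms for sex or for lung structural markers, no term for the experiment, the 6 libraries of an experiment alone, other transcript lengths, and leaving out each library. A term for alveolar macrophage markers was added after seeing the data. Markers of neutrophils, lymphocytes and platelets were also listed.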

Additional observations from a re-analysis of the deposited data

Results flagged for a closer look

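The effect of AdTGFb1 differed between the experiments, by the interaction test of edgeR, for 4 of the 10 proteases. On the log2 scale, experiment 3 minus experiment 1, the difference was -5.04 for Ctsk, -1.56 for Ctsd, -0.955 for Ctss and -0.843 for Ctsc. Of the other named genes, the difference also passed for the lysosomal genes Lamp1 (-1.002), Grn (-0.964) and Psap (-0.769). All 7 were smaller or lower in experiment 3. In experiment 1, AdCL DC 7, 8 and 9 and AdTGFb1 DC 14 were male, and all other libraries were female. The summed alveolar macrophage markers were higher with AdTGFb1 in experiment 1 and lower in experiment 3. The part of sex and of the markers in these differences was not tested beyond the fits above.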

How the results depend on the processing

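No direction of a called value reversed under any alternative run. No paired analysis was possible because the groups share no library numbers. Over both experiments the count of proteases called higher stayed within 1.5 times of 7 under every alternative. The count of all genes called higher went from 897 to 582 with a term for sex and to 1318 with the alveolar macrophage markers. With the lung structural markers in the model, calls of proteases went from 9 to 1 in experiment 1, from 8 to 0 within AdCL and from 4 to 0 for the difference between the effects. Of the lost calls in experiment 1, the value rose in Ctsl (1.56, from 1.41), Ctsh (0.50, from 0.43) and Ctsa (0.91, from 0.75). It fell in Ctss (0.95, from 1.42), Ctsd (1.20, from 2.15), Ctsk (2.73, from 4.26) and Ctsb (0.83, from 0.93). Lgmn stayed at 0.67. With the alveolar macrophage markers in the model, added after seeing the data, calls of proteases went to 5 in experiment 1. They went to 0 in experiment 3, 1 within AdCL and 0 for the difference between the effects. For experiment 3 against 1 they went from 2 to 4. With sex in the model they went to 1 for the difference between the effects, 0 for experiment 3 against 1 and 0 within AdCL. In the fits on 4 groups, the sex term rests on AdTGFb1 DC 14 against DC 52 and 54. DESeq2 called 5 in experiment 3 in place of 3. Leaving out each library gave 1 to 4 in experiment 3, 1 to 2 for experiment 3 against 1 and 4 to 8 within AdCL.

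Over all genes, calls in experiment 1 went from 1397 to 540 with the sex term, 99 with the structural term and 239 with the alveolar term. In experiment 3 they went from 261 to 423 with DESeq2, 392 with no filter, 9 with the alveolar term and 149 to 296 without a library. For experiment 3 against 1 they went from 472 to 777 with the alveolar term. Within AdCL they went from 546 to 32 (sex), 43 (structural), 71 (alveolar) and 336 to 563 without a library. For the difference between the effects they went from 343 to 70 (sex), 19 (structural), 1 (alveolar) and 212 to 415 without a library. The cause was not tested. Depth did not keep any of the 10 genes from being detected, as Ctsk, at 2.7 to 103.3 CPM, lay above the limit that a count of 0 allows in every library.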
